A study of Drosophila melanogaster with 26 samples.

Results

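The 10 Polycomb group genes *Pc*, *ph-p*, *ph-d*, *Psc*, *Su(z)2*, *Sce*, *E(z)*, *esc*, *Su(z)12* and *pho* were taken by name, matched to their FlyBase identifiers and followed through 26 RNA-seq libraries of *Drosophila* cells. They are 10 of 17489 genes in the count tables, and all 10 had reads in every library. Libraries came from 2 established lines, male S2-DRSC cells and female Kc167 cells, after control RNAi or RNAi against *jasper* or *jil-1*, which encode the subunits of a chromatin complex that binds active gene bodies. The study asked how transcription changed upon loss of either protein in male and female cells.

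Of the S2 libraries 5 were controls, 4 had *jasper* knocked down and 5 had *jil-1* knocked down, and the Kc line gave 4 libraries of each kind. All cells, controls included, received double-stranded RNA at 10 µg/mL, were treated again after 3 days and were grown for 4 more days. The labels do not say what the control RNA was directed against. S2 libraries carried 3 batch numbers in their labels and Kc libraries 2, and the S2 batch 3 held 1 control and 1 *jil-1* RNAi library but no *jasper* RNAi library. Each sex is represented by 1 line, and nothing states whether libraries came from separate cultures, so p-values measure only the spread between these libraries, which may be technical.

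Polycomb group proteins keep developmental genes such as the Hox genes silent. PRC2, with the methyltransferase E(z), trimethylates a specific lysine on the tail of histone H3. PRC1, whose Pc subunit binds that mark through its chromodomain, compacts chromatin and ubiquitinates histone H2A. DNA-binding proteins such as Pho recruit both complexes to Polycomb response elements in the fly.

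Reads assigned to the strand of a gene numbered from 2513223 to 17648358 per library, and levels are given as CPM, read counts relative to the library total after TMM scaling over all libraries. In the check of the RNAi labels, reads on the opposite strand of *Jasper* were at least 132 CPM in S2 and 18.2 CPM in Kc *jasper* RNAi libraries, against at most 10.5 and 3.91 CPM in all other libraries of those lines. For *JIL-1* the opposite strand gave at least 110.0 and 58.1 CPM in *jil-1* RNAi libraries, against at most 13.2 and 6.54 CPM elsewhere. Reads on the strand of the gene did not follow the labels in one direction: *Jasper* was below every control in 2 of 4 S2 and 2 of 4 Kc *jasper* RNAi libraries and reached 1641 and 1929 CPM in others, and *JIL-1* was below every control in 0 of 5 S2 and 1 of 4 Kc *jil-1* RNAi libraries. The extent of knockdown therefore cannot be read from these counts, and groups are called by their labels throughout. The male-specific RNA *roX2* lay between 523 and 959 CPM in S2 and between 0.603 and 20.9 CPM in Kc libraries, while *roX1* did not separate the lines. The summed level of 9 hemocyte markers, all detected, was 6011 to 11402 CPM in S2 and 1667 to 3338 CPM in Kc libraries.

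Gene spans are given on the BDGP6 genome from Ensembl release 115. *Pc* lies on chromosome 3L from 21306138 to 21318020, *E(z)* on 3L from 10634575 to 10638130 and *Su(z)12* on 3L from 19918242 to 19923462. *Sce* lies on 3R from 27680431 to 27682029, *esc* on 2L from 11827204 to 11829405 and *pho* on chromosome 4 from 1172469 to 1181628. The paralogs *ph-d* (2115727 to 2123286) and *ph-p* (2126210 to 2138371) are neighbours on the X chromosome, 2923 bp apart with 0 annotated genes between them. The paralogs *Psc* (12965997 to 12980994) and *Su(z)2* (12996501 to 13007911) lie 15506 bp apart on 2R with 2 genes between them. Counts of *ph-p* and *ph-d* are uncertain because only uniquely aligned reads were kept and the pair are similar in sequence. No member shares exonic sequence with another gene on its own strand, whereas *Pc* shares 60 bp with *CG7632* and *E(z)* 38 bp with *CG34001* on the opposite strand. Opposite-strand reads reached 23.5% of the total for *Pc* and at most 5.64% for any other member.

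All members were expressed at moderate levels. Their levels ran from 19.7 to 145 CPM over the 260 values, with 62 to 2550 reads behind each value. No member varied more than 2.66-fold between its lowest and highest library (*Psc*), and *Su(z)2* varied least, 1.42-fold. Per kilobase of exon, *E(z)* (43.2 ± 4.47 CPM per kb, SD, n = 5) and *pho* (39.3 ± 3.00) were highest in S2 control cells, and their ranges overlapped. *Sce*, the H2A ubiquitin ligase of PRC1, followed at 24.7 ± 2.45 CPM per kb, then *esc* at 18.8 ± 0.421, and neither range overlapped with that of its neighbours in this order. *Su(z)12* (10.97 CPM per kb), *Su(z)2* (10.6), *Psc* (8.98) and *Pc* (8.70) formed a run in which each range overlapped the next, and *ph-d* (6.15) and *ph-p* (4.39) came last, apart from each other and from the rest.

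The order was different in Kc control cells. *pho* was highest at 45.1 ± 8.44 CPM per kb (SD, n = 4), followed by *esc* at 29.5 ± 1.88 and *E(z)* at 25.0 ± 1.51, none overlapping. *Sce* (20.6) and *Su(z)12* (19.8) overlapped, as did *Pc* (10.2) and *Su(z)2* (10.0). *ph-p* (7.32) lay above *Psc* (5.02), which overlapped *ph-d* (4.13). Members were ranked among 9209 expressed genes, those with a known length and reads in every S2 library, every Kc library or both. They sat between percentiles 29.1 (*ph-p*) and 77.6 (*E(z)*) in S2 control cells and between percentiles 27.2 (*ph-d*) and 79.0 (*pho*) in Kc control cells.

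**Figure D1:**
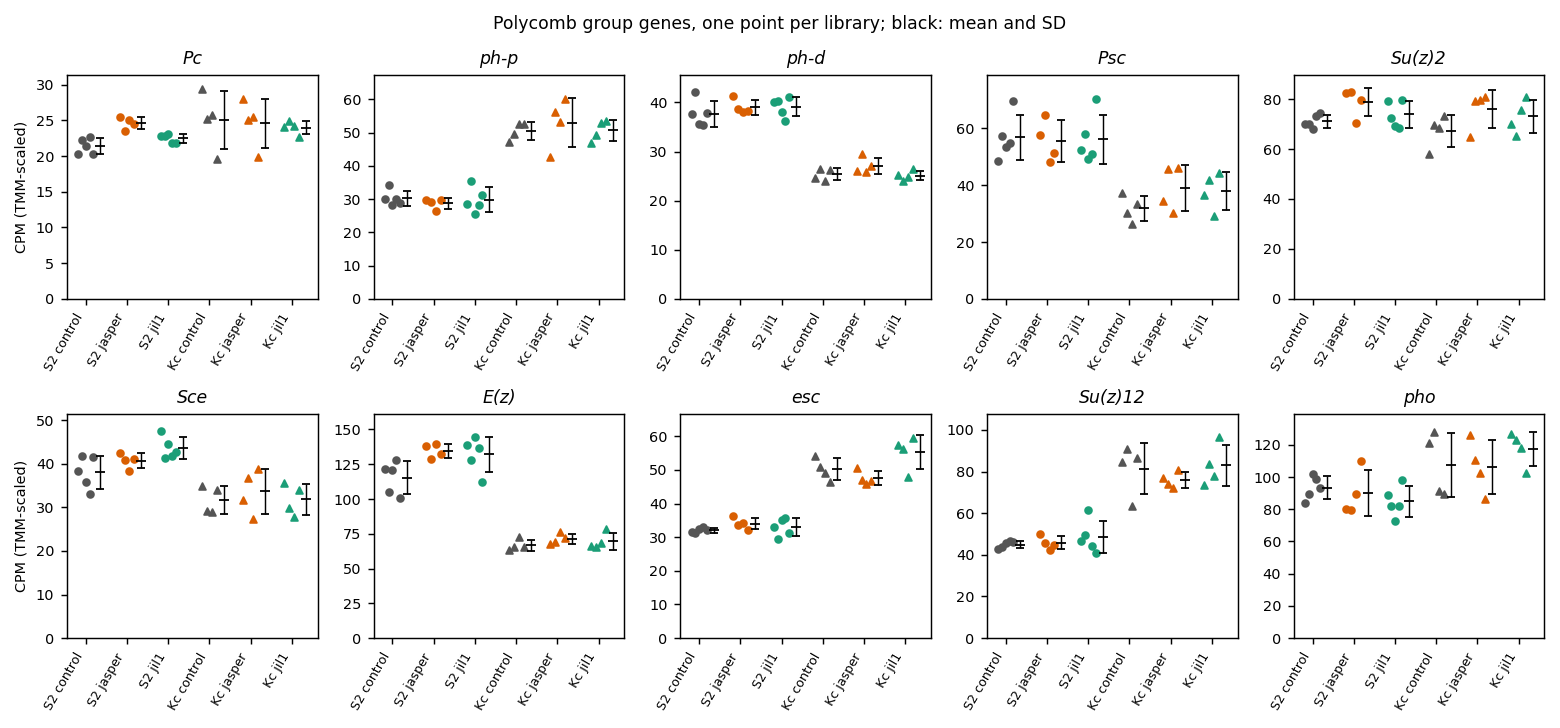
Level of each of the 10 members in CPM (vertical axis, from 0) in every library of the 6 groups (horizontal axis), S2 as circles and Kc as triangles. Black bars give the mean and SD of a group. *E(z)*, *Psc* and *ph-d* are higher in S2 control than in Kc control libraries, and *ph-p*, *esc* and *Su(z)12* are lower.

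Upon *jasper* RNAi in male S2 cells, 3 of the 10 members rose and 0 fell. They were *Pc*, *Su(z)2* and *E(z)*, by 15.1%, 12.7% and 12.8%, so 2 genes of PRC1 and the catalytic subunit of PRC2. Over all 8465 genes tested, 8.45% rose and 11.9% fell. The median log2 fold change was 0.074 over the members and 0.012 over all genes. Ranges of the RNAi and control libraries did not overlap for 2 members, and how many of all genes lacked overlap was not counted.

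*Pc*, the chromodomain subunit of PRC1, measured 20.3, 22.3, 21.5, 22.7 and 20.4 CPM in S2 control replicates 4, 5, 8, 9 and 11. In the *jasper* RNAi replicates 4, 5, 8 and 9 it measured 25.5, 23.6, 25.0 and 24.5 CPM. Every *jasper* RNAi library was above every control library. The log2 fold change was 0.20 ± 0.066 (SE, edgeR's quasi-likelihood test, adjusted p = 0.0392), 0.20 within batch 1 and 0.16 within batch 2. *Pc* missed the threshold in DESeq2 (adjusted p = 0.12), and in edgeR with the replicate number as a block in place of batch (0.0539), with only the compared groups fitted (0.0757) and with no filter on low counts (0.167). It passed in 8 of 24 alternatives.

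*Su(z)2*, the paralog of *Psc*, measured 70.0, 70.2, 68.2, 73.5 and 74.4 CPM in the same controls and 82.5, 82.9, 70.6 and 79.6 CPM upon *jasper* RNAi. Replicate 8 was the low *jasper* RNAi library and lay within the control range, and each RNAi library was above the control of the same number (4 of 4). The log2 fold change was 0.17 ± 0.052 (adjusted p = 0.0292, edgeR), and with no filter on low counts the call was lost (adjusted p = 0.0652).

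*E(z)*, the methyltransferase of PRC2, measured 121, 105, 121, 128 and 100.5 CPM in controls. It measured 138, 129, 139.7 and 132 CPM upon *jasper* RNAi. The groups did not overlap, and control replicate 11, from the batch without a *jasper* RNAi library, was the lowest. The log2 fold change was 0.17 ± 0.052 (adjusted p = 0.0273, edgeR), with 0.24 within batch 1 and 0.12 within batch 2.

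The other 7 members did not pass the test upon *jasper* RNAi in S2 cells. Their log2 fold changes lay between -0.051 (*ph-p*) and 0.11 (*Sce*), with SE between 0.054 and 0.097. With TMM factors taken from autosomal genes only, *Pc*, *Su(z)2* and *E(z)* kept their sign but 0 members passed (adjusted p 0.069, 0.0598 and 0.0527), and over all genes 481 rose and 1142 fell in place of 715 and 1004. Leaving out S2 *jasper* replicate 4 or 5 or control replicate 8 also left 0 members, and leaving out control replicate 4 or 5 or *jasper* replicate 8 or 9 left 1.

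Upon *jil-1* RNAi in S2 cells, 2 of the 10 members rose and 0 fell, namely *Sce* and *E(z)*. Over all 8465 genes, 9.12% rose and 12.3% fell. The median log2 fold change was 0.059 over the members and 0.0034 over all genes. This comparison shares its control libraries with the one for *jasper* RNAi.

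*E(z)* measured 139, 128, 145, 137 and 112 CPM in *jil-1* RNAi replicates 4, 5, 8, 9 and 11. Each library was above the control of the same number (5 of 5), and the groups overlapped. Both replicates 11 were the lowest of their group. The log2 fold change was 0.20 ± 0.048 (adjusted p = 0.0088, edgeR), and it was 0.24, 0.17 and 0.16 within batches 1, 2 and 3.

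*Sce* measured 38.3, 41.8, 35.9, 33.0 and 41.6 CPM in controls. It measured 47.5, 41.4, 44.6, 41.7 and 42.7 CPM upon *jil-1* RNAi. Replicate 5 was slightly below its control and the other 4 were above theirs, and the groups overlapped at their edges. The log2 fold change was 0.21 ± 0.060 (adjusted p = 0.0219, edgeR), with 0.15, 0.32 and 0.037 within batches 1, 2 and 3.

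The other 8 members did not pass in S2 cells upon *jil-1* RNAi. The largest of their log2 fold changes was that of *pho*, which encodes the zinc finger protein that binds Polycomb response elements, at -0.15 ± 0.083. *Su(z)12* varied most relative to its mean (coefficient of variation 16.1%), from 40.9 to 61.3 CPM with replicate 8 as the high library. Its log2 fold change was 0.11 ± 0.089. *Pc* (0.079 ± 0.062) and *Su(z)2* (0.056 ± 0.049), which rose upon *jasper* RNAi, were smaller here. Leaving out S2 control replicate 4, 8 or 9 or *jil-1* replicate 4 left *E(z)* as the only member called, and without the batch term 0 members passed for either RNAi.

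The direct comparison of the RNAi groups in S2 cells called 0 of 10 members, against 6.38% of all genes by adjusted p. The share of all genes at an unadjusted p below 0.05 was not computed for any comparison. In edgeR 1 member had an unadjusted p below 0.05. That member was *Su(z)2*, with a log2 difference of *jasper* over *jil-1* RNAi of 0.12 ± 0.051 (edgeR, unadjusted p = 0.0368, adjusted p = 0.207). *Pc* was the only member whose libraries did not overlap between the RNAi groups, 23.6 to 25.5 CPM upon *jasper* and 21.8 to 23.1 CPM upon *jil-1* RNAi. How many of all genes lacked overlap was not counted. The difference of *Pc* was 0.12 ± 0.064 (adjusted p = 0.292, edgeR). *Sce* was lower in the *jasper* RNAi library of all 4 numbers, at -0.099 ± 0.063 (adjusted p = 0.41). DESeq2 called 0 members here too.

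Summed hemocyte markers in S2 cells were 6011 to 9593 CPM in control, 8849 to 11402 CPM in *jasper* RNAi and 7928 to 10936 CPM in *jil-1* RNAi libraries. Both RNAi ranges reached higher than control and overlapped it. The 3 muscle markers summed to 2.29 to 4.07 CPM in control, 5.16 to 7.63 CPM in *jasper* RNAi and 2.62 to 5.92 CPM in *jil-1* RNAi libraries, so the *jasper* RNAi libraries lay wholly above control. The 2 germline markers matched summed to 0.343 to 1.86, 0.829 to 2.06 and 2.10 to 4.27 CPM in the same order, with the *jil-1* RNAi libraries wholly above control. The muscle and germline sums are near the floor and rest on few reads per library. How many of all genes lay wholly above control was not counted. The neuronal markers were at 27.9 to 40.9 CPM over 14 libraries, and their ranges overlapped between groups. The part of these markers in the changes of *Pc*, *Su(z)2*, *E(z)* and *Sce* was not tested. In bulk RNA, fewer cells of a kind and less RNA per cell cannot be told apart.

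**Figure D2:**
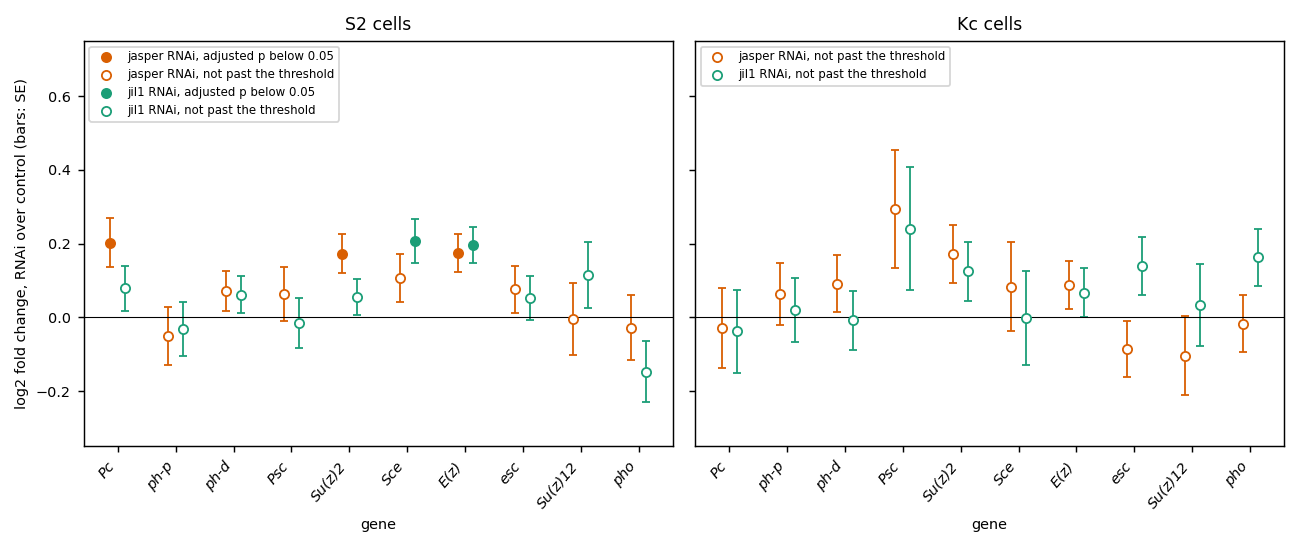
Log2 fold change of each member upon *jasper* (orange) or *jil-1* (green) RNAi over control in S2 (left) and Kc cells (right), with SE as bars. Filled points passed the adjusted p threshold of 0.05: *Pc*, *Su(z)2* and *E(z)* upon *jasper* RNAi, and *Sce* and *E(z)* upon *jil-1* RNAi, in S2 cells.

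In female Kc cells, 0 of 10 members passed the test upon *jasper* RNAi, where 4.56% of all 8847 genes did, and 0 of 10 passed upon *jil-1* RNAi, where 3.53% did. By unadjusted p below 0.05 in edgeR, 1 and 0 members were found, a threshold at which no share of all genes was computed. DESeq2 called 0 in each. The spread was larger than in S2 cells, with a common coefficient of biological variation of 12.4% against 7.43%.

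*E(z)* measured 63.1, 65.4, 72.5 and 65.8 CPM in Kc control replicates 1 to 4. It measured 68.0, 69.0, 76.1 and 71.7 CPM upon *jasper* RNAi and 65.9, 65.6, 68.4 and 78.6 CPM upon *jil-1* RNAi. The groups overlapped. *jasper* RNAi gave a log2 fold change of 0.087 ± 0.065 and *jil-1* RNAi 0.067 ± 0.067, and 2 SE around the estimates spanned -0.043 to 0.22 and -0.066 to 0.20.

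*Su(z)2* measured 58.2, 69.6, 68.5 and 73.1 CPM in Kc control replicates 1 to 4 and 64.9, 79.1, 79.8 and 81.0 CPM upon *jasper* RNAi. It was higher in the RNAi library of all 4 numbers while the groups overlapped, and its log2 fold change of 0.17 ± 0.078 had an unadjusted p of 0.0478 and an adjusted p of 0.226 in edgeR. *Pc*, in contrast to *Su(z)2*, was higher in 1 of 4 RNAi libraries, with a log2 fold change of -0.029 ± 0.11.

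*Psc*, the partner of the ligase Sce in PRC1, had the largest estimates in Kc cells, 0.29 ± 0.16 upon *jasper* RNAi (adjusted p = 0.302) and 0.24 ± 0.17 upon *jil-1* RNAi (adjusted p = 0.444, edgeR). It measured 37.1, 30.2, 26.4 and 33.5 CPM in control replicates 1 to 4, 34.6, 45.6, 30.0 and 46.1 CPM upon *jasper* RNAi, and 36.5, 41.7, 29.3 and 44.3 CPM upon *jil-1* RNAi. Replicates 2 and 4 were the high libraries in both RNAi groups. Without these *jasper* RNAi libraries the estimate upon *jasper* RNAi was 0.016 ± 0.16, a fall that follows from leaving out the highest values.

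The log2 differences between the RNAi groups in Kc cells were largest for *esc* and *pho*, and neither passed the test. *esc*, the WD repeat subunit of PRC2, measured 50.6, 47.0, 45.8 and 46.6 CPM upon *jasper* RNAi and 57.4, 56.3, 47.9 and 59.6 CPM upon *jil-1* RNAi, and was lower upon *jasper* RNAi at all 4 numbers. The log2 difference of *jasper* over *jil-1* RNAi was -0.23 ± 0.078 for *esc* (unadjusted p = 0.0124, adjusted p = 0.182) and -0.18 ± 0.078 for *pho* (unadjusted p = 0.038, adjusted p = 0.288) by edgeR. In this comparison 0 of 10 members passed by adjusted p, where 0.588% of all genes did, and DESeq2 called 0. At an unadjusted p below 0.05 in edgeR there were 2 members, and the share of all genes at that threshold was not computed.

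Summed hemocyte markers in Kc cells were 2533 to 3338 CPM in control, 2044 to 2712 CPM in *jasper* RNAi and 1667 to 2341 CPM in *jil-1* RNAi libraries, and the *jil-1* RNAi libraries lay wholly below control. The muscle markers summed to 0.899 to 1.73, 1.22 to 2.76 and 2.50 to 3.29 CPM in the same order, with *jil-1* RNAi wholly above control. These muscle sums are near the floor and rest on few reads per library. How many of all genes lay wholly above or below control was not counted. The germline markers (34.7 to 158 CPM over 12 libraries) overlapped between groups, and the neuronal markers reached 173 CPM in a Kc *jasper* RNAi library and at most 71.4 CPM in the other Kc groups. The part of these markers in the Kc values was not tested.

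The test of the difference in response between the lines called 0 of 10 members for *jasper* RNAi, against 4.32% of 7909 genes, and 0 of 10 for *jil-1* RNAi, against 7.93%. By unadjusted p below 0.05 in edgeR, 0 and 1 members were found, a threshold at which no share of all genes was computed. DESeq2 called 0 in each. The calls made in S2 and not in Kc cells are thus not shown to differ between the lines. For *E(z)* the S2 response exceeded the Kc response by 0.078 ± 0.077 upon *jasper* RNAi (adjusted p = 0.657) and by 0.14 ± 0.076 upon *jil-1* RNAi (adjusted p = 0.287). For *Pc* upon *jasper* RNAi the difference was 0.22 ± 0.12 (adjusted p = 0.336), and for *Sce* upon *jil-1* RNAi it was 0.22 ± 0.14 (adjusted p = 0.358). The member with an unadjusted p of 0.022 was *pho*, whose response to *jil-1* RNAi was 0.30 ± 0.12 lower in S2 than in Kc cells on the log2 scale (adjusted p = 0.133, edgeR).

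Between S2 and Kc control cells 8 of 10 members differed, with *ph-d*, *Psc*, *Sce* and *E(z)* higher in S2 and *Pc*, *ph-p*, *esc* and *Su(z)12* lower. Over all 9403 genes tested, 36.4% were higher and 39.5% lower, so the members' share is near that of all genes. Ranges did not overlap between the control lines for 6 of the 10 members. How many of all genes lacked overlap between the lines was not counted. Both PRC1 and PRC2 held genes of either direction. Line, sex and everything else that differs between the cultures cannot be told apart here.

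Among the members that encode subunits of the PRC2 core, *E(z)* was higher in S2, and *esc* and *Su(z)12* were lower. *E(z)* lay between 100.5 and 128 CPM in 5 S2 controls and between 63.1 and 72.5 CPM in 4 Kc controls, a log2 fold change of 0.75 ± 0.055 (adjusted p = 7.91e-12, edgeR). *esc* measured 31.6, 31.1, 32.4, 33.0 and 32.0 CPM in S2 and 54.2, 50.9, 49.2 and 46.5 CPM in Kc controls. *Su(z)12*, a zinc finger subunit that the methyltransferase needs for its activity, measured 42.8, 43.7, 45.6, 46.4 and 46.2 CPM in S2 and 84.4, 90.8, 63.4 and 86.6 CPM in Kc controls. None of these ranges overlapped between the lines, and the log2 fold changes were -0.65 ± 0.063 for *esc* (adjusted p = 1.34e-09) and -0.87 ± 0.10 for *Su(z)12* (adjusted p = 5.13e-08).

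The neighbouring paralogs *ph-p* and *ph-d*, which encode Polyhomeotic proteins of PRC1, went opposite ways. *ph-p* measured 30.2, 34.2, 28.2, 29.9 and 28.7 CPM in S2 and 47.2, 49.4, 52.5 and 52.7 CPM in Kc controls. *ph-d* measured 37.6, 42.1, 35.5, 35.4 and 37.8 CPM in S2 and 24.7, 26.4, 23.9 and 26.3 CPM in Kc controls. Neither range overlapped, and the log2 fold changes were -0.75 ± 0.079 (adjusted p = 6.09e-09) and 0.57 ± 0.058 (adjusted p = 3.7e-09, edgeR).

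Among the other PRC1 genes, *Psc* was higher in S2 controls (48.5, 57.4, 53.5, 55.0 and 69.7 CPM) than in Kc controls, with a log2 fold change of 0.88 ± 0.12 (adjusted p = 5.4e-07). Its paralog and neighbour *Su(z)2* did not pass the test, at 0.093 ± 0.064. *Sce* (0.28 ± 0.093, adjusted p = 0.00986) and *Pc* (-0.24 ± 0.085, adjusted p = 0.0145) passed while their ranges overlapped between the lines, because Kc control replicate 4 was low for *Pc* and S2 control replicate 9 low for *Sce*. *pho* overlapped as well and did not pass (-0.17 ± 0.089, adjusted p = 0.0844). Leaving out S2 control replicate 11, or Kc control replicate 1 or 3, ended the call of *Pc*, and leaving out S2 control replicate 11 or Kc control replicate 2 ended that of *Sce*. The call of *Pc* was also lost with no filter on low counts (adjusted p = 0.0658, edgeR), and with only control libraries and no batch term both *Pc* (0.0505) and *Sce* (0.0581) missed the threshold.

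**Figure D3:**
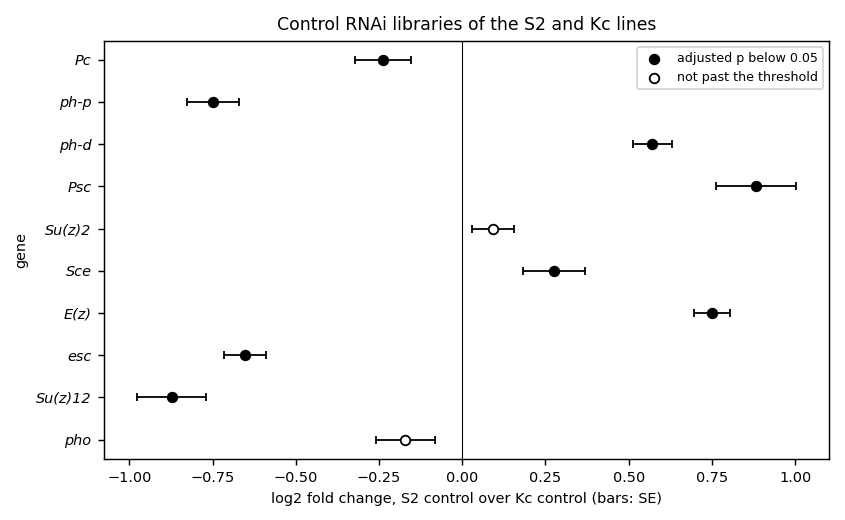
Log2 fold change of each member in S2 over Kc control libraries (horizontal axis), with SE as bars and filled points for adjusted p below 0.05. *E(z)* lies at 0.75 and *Su(z)12* at -0.87, and *ph-d* at 0.57 and *ph-p* at -0.75, on either side of 0.

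Ratios of members within a library, each per kilobase of exon, do not depend on the scaling between libraries. The ratio of *ph-p* to *ph-d* was 0.597 to 0.780 in 14 S2 and 1.46 to 1.98 in 12 Kc libraries. *E(z)* to *Su(z)12* was 3.35 to 5.07 in S2 and 1.11 to 1.76 in Kc, and *E(z)* to *esc* was 2.01 to 2.79 and 0.734 to 1.06. These ranges did not overlap between the lines, whatever the RNAi. Each of these ratios pairs members called in opposite directions between the control lines, so the separation largely restates that result. How many ratios of other gene pairs lacked overlap was not counted. The ratio of *Psc* to *Su(z)2* came closest to overlap, with 0.687 to 0.995 in S2 and 0.400 to 0.677 in Kc libraries.

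**Figure D4:**
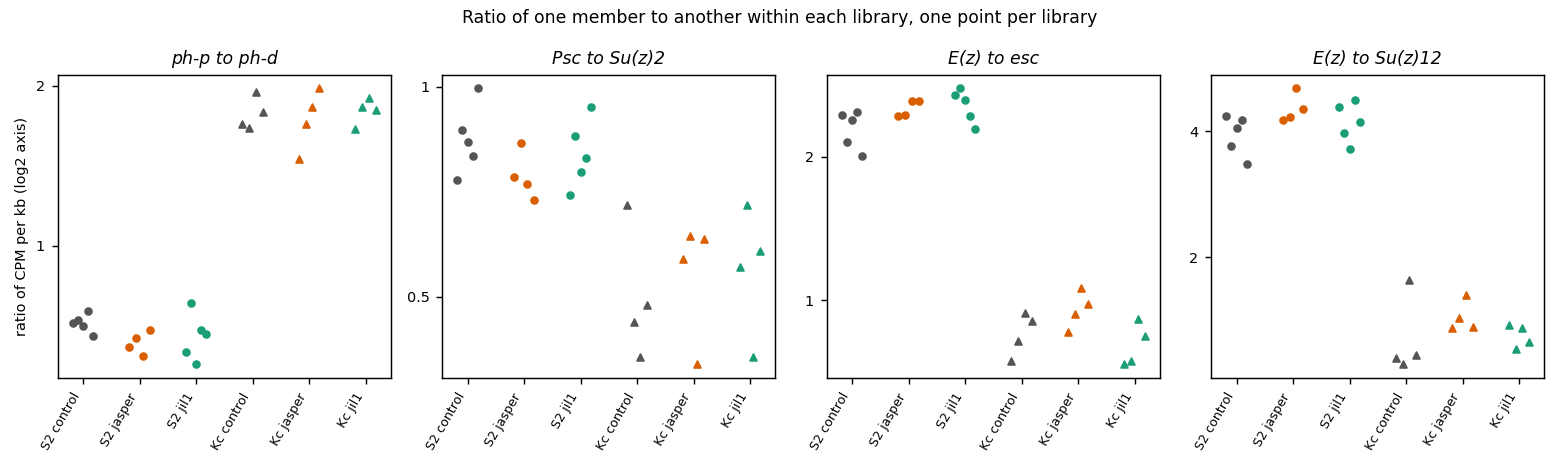
Ratio of one member to another, per kilobase of exon, in each library of the 6 groups (log2 vertical axis, S2 as circles, Kc as triangles). The ratio of *ph-p* to *ph-d* is below 1 in all 14 S2 and above 1 in all 12 Kc libraries, and *E(z)* to *Su(z)12* is 3.35 or more in S2 and 1.76 or less in Kc.

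Paralogs of members outside the 10 were measured as well. *escl*, the paralog of *esc*, was at 11.9 ± 1.63 CPM in 5 S2 controls and 15.3 ± 1.10 CPM in 4 *jasper* RNAi libraries, and it rose (log2 fold change 0.33 ± 0.11, adjusted p = 0.0458, edgeR), a call that was lost with TMM from autosomal genes and in DESeq2, while *esc* itself did not pass (0.076 ± 0.064). *escl* was lower in S2 than in Kc controls (-0.28 ± 0.12, adjusted p = 0.0328), in the same direction as *esc*. *phol*, the paralog of *pho*, was at 64.5 ± 6.88 CPM in S2 and 57.3 ± 2.38 CPM in Kc controls and passed in none of the 9 comparisons.

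Of 23 further Polycomb group genes, 22 were matched. In S2 cells, 1 rose and 2 fell upon *jasper* RNAi, where 8.45% of all genes rose and 11.9% fell, and 0 rose and 2 fell upon *jil-1* RNAi, where 9.12% and 12.3% did. Of the 22 genes, 0 passed edgeR in Kc cells upon *jasper* RNAi, against 4.56% of all genes by adjusted p. At an unadjusted p below 0.05 in edgeR there were 7, and DESeq2 called 0. Upon *jil-1* RNAi 0 passed edgeR as well, against 3.53% of all genes by adjusted p. There 5 had an unadjusted p below 0.05 in edgeR, and DESeq2 called 1. The share of all genes at unadjusted p was not computed. *sxc*, which encodes an O-GlcNAc transferase, fell by 0.21 and 0.24 on the log2 scale upon *jasper* and *jil-1* RNAi in S2 cells, and the histone demethylase gene *Kdm2* fell by 0.14 and 0.24. The test of the difference in response between the lines called 0 of the 22 for *jasper* RNAi, against 4.32% of all genes. For *jil-1* RNAi 0 responses were higher and 3 lower in S2 than in Kc cells, against 7.93% of all genes in either direction. These were *sxc* (-0.36 ± 0.092, adjusted p = 0.0194, edgeR), *corto* (-2.65) and *crm* (-0.40). Between the control lines 9 were higher in S2 and 6 lower, where 36.4% and 39.5% of all genes were, with *corto* (2.37), *crm* (1.57), *Jarid2* (0.96) and *Asx* (0.75) the largest log2 fold changes. *corto* rested on 1 to 26 reads per control library.

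The 12 Trithorax group genes, which counteract Polycomb silencing, were all tested. Upon *jasper* RNAi in S2 cells 4 rose and 1 fell, beside 8.45% and 11.9% of all genes. Those that rose included *trx* (0.25 ± 0.044, adjusted p = 0.000793) and *tna* (0.37 ± 0.090, adjusted p = 0.00877, edgeR), and *fs(1)h* fell by 0.18 on the log2 scale. With TMM from autosomal genes 2 rose and 1 fell, and with DESeq2 3 rose and 1 fell. Upon *jil-1* RNAi, where 9.12% of all genes rose and 12.3% fell, 2 rose, again *trx* (0.19) and *tna* (0.33), and *fs(1)h* fell by 0.22 on the log2 scale. In Kc cells *tna* rose upon *jasper* RNAi (0.97 ± 0.17, adjusted p = 0.00981, edgeR), and 0 passed upon *jil-1* RNAi. In each of these comparisons 2 had an unadjusted p below 0.05 in edgeR, and DESeq2 called 2, *tna* and *trx*. Of all genes, 4.56% and 3.53% passed by adjusted p in these Kc comparisons, and the share at unadjusted p was not computed. Between the control lines 5 were higher in S2 and 2 lower, again beside 36.4% and 39.5% of all genes.

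Of 35 classical Polycomb targets, 32 were matched, but only 5 were detected in every S2 library and 7 in every Kc library. Only these were tested within a line, so a rise of a silent target upon RNAi could not be called. *tsh* was the one that passed in S2 cells, at 210 ± 11.2 CPM in control, 157 ± 17.8 CPM upon *jasper* and 154 ± 17.4 CPM upon *jil-1* RNAi (log2 fold changes -0.44 and -0.45), so 0 rose and 1 fell in each comparison, beside 8.45% and 11.9% of all genes upon *jasper* and 9.12% and 12.3% upon *jil-1* RNAi. In Kc cells the Hox gene *Dfd* passed upon *jasper* RNAi (log2 fold change 1.48 ± 0.31, adjusted p = 0.0208, edgeR), and 0 targets passed upon *jil-1* RNAi. Of all genes, 4.56% and 3.53% passed by adjusted p. DESeq2 called 0 targets upon *jil-1* RNAi, and 1 had an unadjusted p below 0.05 in edgeR, for which no share of all genes was computed. Between the control lines 9 targets were tested, of which 4 were higher in S2 and 4 lower, beside 36.4% and 39.5% of all genes. A gene entered that comparison if every library of either line had reads, so targets that are on in 1 line had to differ and their count is a description.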

How the data were processed

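The authors aligned 50 bp read pairs to BDGP6 with STAR 2.6.0, keeping unique alignments, and deposited raw counts per gene without normalization: on the strand of the gene, on the opposite strand and without regard to strand. RSEM 1.3.0, also named in the processing notes, gave no value used here. Own-strand counts were analysed. Reads that the tables assign to no gene (50.6% to 72.4% per library) were left out.

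Genes with more than 0 reads in every library of a line were tested with edgeR 4.0.16 in R 4.3.3 (TMM, quasi-likelihood F-test, batch as block, Benjamini-Hochberg over all genes, threshold 0.05). All 26 libraries entered 1 model for differences between lines, with batch nested in line. SE is the log2 fold change over the square root of F. edgeR bounds the variance from below, which can make p larger than this SE implies (*esc* and *ph-d*). Within-batch differences used a pseudocount of 0.5 CPM. Exon lengths came from Ensembl release 115, which held 17215 of 17489 genes. The script was tested on simulated counts.

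The 10 members and all gene lists were chosen with earlier results of these data known. All members are described. Outside them, a listed gene is named only where it passed the test, at most the 4 largest changes per list and comparison, apart from paralogs and the targeted genes.

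Over 44 pairs of libraries within groups, chi-square per degree of freedom was 2.82 to 43.4, so none was counted as a duplicate. Deviations from group means correlated between same-numbered libraries in every pair, 0.173 to 0.679 in S2 and 0.246 to 0.510 in Kc cells. The numbers are nested in the labelled batch, and within batches only 2 of 12 S2 and 4 of 12 Kc pairs exceeded 0.1. Within batches, both pairs of a batch have the same value by construction, so these counts are not of independent pairs. Alternatives covered test, scaling, filter, strand, block and samples, and for the lists outside the members scaling and test were added after seeing the data. DESeq2 1.42.0 was one.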

Additional observations from a re-analysis of the deposited data

Results flagged for a closer look

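*Su(z)2* in Kc *jasper* RNAi replicate 1 stood apart from the other 3 libraries of its group, at 64.9 CPM with the nearest at 79.1 CPM. It was the only one of 60 gene and group combinations to do so, and chance alone sets apart about 1 in 20.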

How the results depend on the processing

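No estimate that passed the test had the other sign under an alternative, while some that did not pass changed sign, such as *Pc* (-0.10 to 0.085) and *Sce* (-0.10 to 0.17) upon *jasper* RNAi in Kc cells. Of 890 member estimates under other tools, scalings, filters, strands, blocks or sample sets, 872 kept their side of the threshold, 17 lost and 1 gained a call, and of 1560 estimates with 1 library left out, 1529 kept it, 29 lost and 2 gained a call. Upon *jasper* RNAi in S2 cells the 3 calls became 0 with TMM from autosomal genes, 1 with no filter on low counts and 0 without the batch term, and 0 to 3 with 1 library left out. Upon *jil-1* RNAi in S2 cells the 2 calls became 0 without the batch term, and 1 to 2 with 1 library left out. The cause was not tested. Between control lines, 6 to 9 of 10 members were called over all settings. In the other 6 comparisons 0 were called in every setting. With the replicate block in place of batch, 2 members were called upon *jasper* and 2 upon *jil-1* RNAi in S2 cells and 0 in Kc cells. *Pc* upon *jasper* RNAi was the only call the replicate block changed. *Pc* passed in 8 of its 24 alternatives, *Su(z)2* in 15 and *E(z)* in 17 (adjusted p 0.0409 to 0.167, 0.0141 to 0.195 and 0.0134 to 0.0936), and upon *jil-1* RNAi *Sce* passed in 19 and *E(z)* in 23 of 24 (0.0156 to 0.124 and 0.00284 to 0.125). Members had as few as 62 reads in the shallowest library, and SE for members upon RNAi reached 0.17 on the log2 scale in Kc cells against 0.097 in S2 cells, which limits what could be detected there.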
